A study of Mus musculus with 2 samples.

Results

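Cxcl13 and 7 other genes of lymphoid homing and B cell survival were followed through the cells of fibrotic mouse liver. The genes were the ligand and receptor pairs Cxcl13 and Cxcr5, Ccl19 and Ccr7, Tnfsf13b and Tnfrsf13c, and Ltb and Ltbr, 8 of the 32285 genes in the count matrices. They were chosen by symbol, with earlier results of these data known, and Cxcl13 was included for its pattern between the libraries, so its levels are a description. Liver non-parenchymal cells, those other than hepatocytes, came from mice injected intraperitoneally with carbon tetrachloride (CCl4) over 8 weeks, a toxin that scars the liver. The libraries were made with droplet chemistry that tags the 3′ ends of RNA. The library called WT came from Mfap2+/+ mice and the library called KO from Mfap2-/- mice, which lack a protein of extracellular microfibrils. The labels name no Cre and no tissue-specific allele. Both groups received CCl4, and no uninjected group is among the samples. How many animals stand behind each library is not given in the labels.

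There was 1 library per genotype, so no test between genotypes was possible, and genotype, animal and library preparation cannot be told apart. Every interval below is a 95% interval for counting error alone. The WT library held 11783 barcodes and the KO library 12872, with medians of 4685 and 6511 unique molecular identifiers (UMIs, tags that count single RNA molecules). After filtering, 10336 WT and 11428 KO cells were kept. Mfap2 itself, counted as a check of the labels, had 211 UMIs in WT cells and 2 in KO cells. Barcodes present in both libraries numbered 40, and for 1 of them the WT cell correlated best with its own KO partner. Cells were assigned to types by lists of marker genes that hold none of the 8. This gave 19 types with at least 20 cells in each library, and left 16.4% of WT and 13.5% of KO cells without a type. Levels are UMIs summed over a type and scaled to 1000000 UMIs of that type (CPM). Because the libraries read 3′ tags, CPM counts transcripts without a correction for length.

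Cxcl13 is a chemokine that draws B cells and follicular T cells, which carry its receptor Cxcr5, into lymphoid follicles. Ccl19 guides naive T cells and mature dendritic cells through Ccr7. Lymphotoxin, built in part from the Ltb protein on lymphocytes, signals through Ltbr on stromal and myeloid cells and, by the non-canonical NF-kappa-B route of Nfkb2 and Relb, is a known inducer of homeostatic chemokines, while the cytokine BAFF (Tnfsf13b) keeps B cells alive through its receptor Tnfrsf13c. In lymph nodes these chemokines come mainly from stromal cells, and macrophages of some tissues also make Cxcl13. Kupffer cells are the resident macrophages of the liver sinusoids. Stellate cells are its vitamin A-storing pericytes and the main precursors of scar-forming cells.

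Cxcl13 (ENSMUSG00000023078) lies at chr5:95956951-95961068 on the forward strand of mouse build GRCm38, and no other counted gene overlaps it. Since its level differed most among the 8 genes, the 250 bases before its RefSeq start (RefSeq, build GRCm38.p6, chr5:95956689-95956938, forward strand) are shown here, with a match to the RelB/p52 kappa-B consensus, the DNA pattern of the non-canonical NF-kappa-B dimer, in capitals.
Cxcl13: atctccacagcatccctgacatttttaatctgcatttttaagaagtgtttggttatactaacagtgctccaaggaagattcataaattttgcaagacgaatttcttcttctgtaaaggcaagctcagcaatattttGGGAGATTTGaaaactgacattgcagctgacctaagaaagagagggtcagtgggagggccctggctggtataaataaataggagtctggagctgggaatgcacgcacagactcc
The capitals GGGAGATTTG begin 114 bases before that start, on the strand shown. A search of both strands of the 250 bases before each start found the consensus in 400 of 32851 RefSeq promoter windows (1.22%), those of 383 of 27025 genes (1.42%). Of the 8 genes, 6 have a window in that table, and Cxcl13 was the 1 with a match. The match is a description of the sequence and no test. The promoters from which the consensus was derived, which may include that of Cxcl13, were not checked. Binding was not measured.

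Cxcl13 RNA was concentrated in Kupffer-gated cells in both libraries, and it was about 10 times lower in the KO library. Kupffer-gated cells were macrophages with a UMI for at least 3 of the 4 Kupffer genes Clec4f, Timd4, Vsig4 and Cd5l, and they numbered 613 in WT (5.93% of cells) and 467 in KO (4.09%). Their Cxcl13 level was 1157 CPM in WT, from 8707 UMIs. In KO it was 115 CPM, from 800 UMIs. The WT level was thus 10.1-fold higher (9.36 to 10.8), a log2 ratio of -3.33 for KO over WT (-3.44 to -3.23). For scale, 1.35% of 12465 genes with at least 20 UMIs in these cells were 2-fold or more lower in KO, and 6.16% were 2-fold or more higher. Macrophages outside the Kupffer gate held 79.4 CPM in WT and 7.17 in KO (log2 -3.46, -3.71 to -3.23), where 0.974% of 14475 genes were that much lower and 6.25% that much higher. These 2 gates held 75.6% and 10.5% of all WT Cxcl13 UMIs, and 70.2% and 14.3% of those in KO. Some other ways of summing moved a value by more than 1.5 times. By cluster in place of gate the levels were 889 and 151 CPM (log2 -2.55), as a mean over cells they were 1232 and 183, and with the 5 richest cells of both libraries left out they were 955 and 68.9. For macrophages outside the gate the log2 ratio was -2.72 by cluster and -4.31 as a mean over cells.

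**Figure D1:**
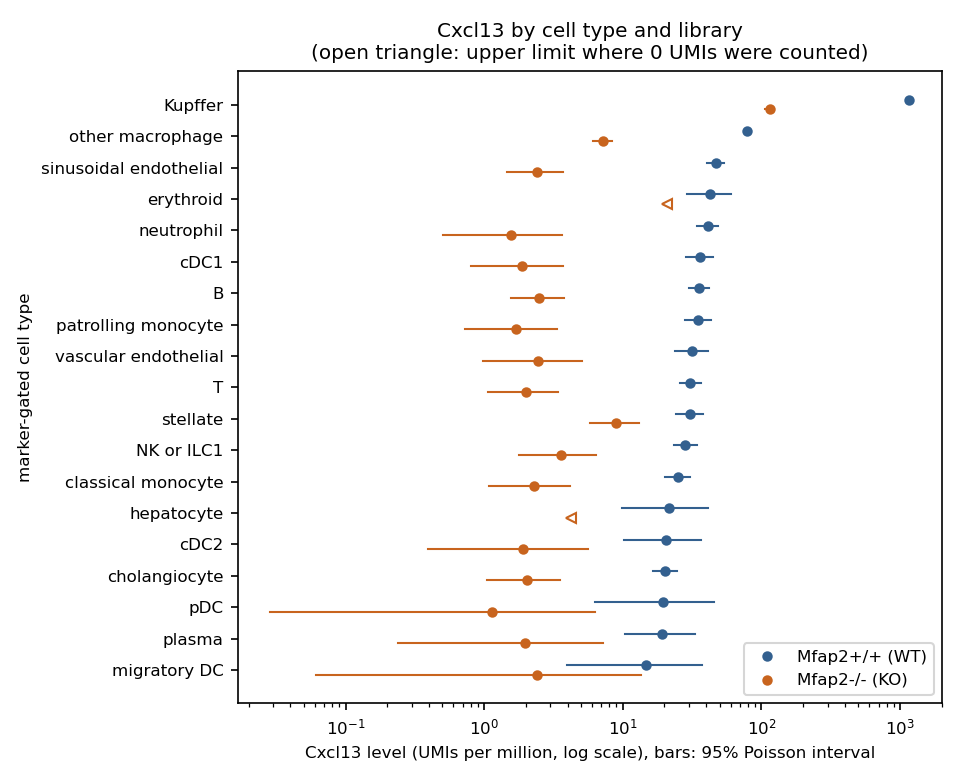
Cxcl13 level in CPM on a log axis for each marker-gated cell type, with WT in blue and KO in orange; points are type sums and bars are 95% Poisson intervals. Kupffer-gated cells stand at 1157 (WT) and 115 (KO), and in each of the 19 types the KO point or upper limit lies to the left of the WT point.

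All other types carried Cxcl13 at a low level, which was taken as the background of free RNA in the droplets. Over the 17 types that are not macrophages, WT levels ranged from 14.6 to 46.7 CPM with a median of 30.5. The KO levels of the same types ranged from 0 to 8.96 with a median of 2.0, and all 17 were below their WT value. The background was not the same in every type, since WT sinusoidal endothelial cells were at 46.7 CPM (40.4 to 53.8) and WT cholangiocytes at 20.2 (16.4 to 24.5). B cells, which served as background, stood at 35.6 CPM in WT (30 to 41.8) and 2.48 in KO (1.55 to 3.75). Kupffer-gated cells therefore exceeded B cells 32.5-fold in WT (27.6 to 38.6) and 46.4-fold in KO (30.4 to 74.4). The intervals of those ratios overlap. Thinning before summing put B cells at 21.9 CPM in WT and 4.04 in KO (log2 -2.30 in place of -3.79), so no order of the libraries is read from the Kupffer to B ratio. Taking the B cell level off the Kupffer level left the KO over WT log2 ratio at -3.32.

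The makeup of this low signal was compared with that of Kupffer-gated cells, using Cd5l, a secreted macrophage protein whose gene marks Kupffer cells. In WT there were 21.3 Cxcl13 UMIs per 100 Cd5l UMIs in Kupffer-gated cells. The same ratio was 19.8 in B cells (16.5 to 23.7), 19.0 in T cells (15.7 to 23.0) and 20.5 in neutrophils (16.8 to 24.8), and all 3 intervals hold the Kupffer value for this gene. In KO it was 3.77 in Kupffer-gated cells, 2.78 in B cells (1.73 to 4.24), 2.46 in T cells (1.30 to 4.24) and 1.46 in neutrophils (0.470 to 3.44), and the neutrophil interval leaves out the Kupffer value. The ratio to Clec4f was less even in WT, at 171 per 100 in Kupffer-gated cells and 261 in B cells (190 to 361). Against Marco the WT ratio was 47.1 in Kupffer-gated cells and 55.7 in B cells (45.2 to 68.5). It was 65.8 in T cells (52.4 to 82.5), 61.9 in neutrophils (49.4 to 77.4) and 62.3 in sinusoidal endothelial cells (51.8 to 74.9), all leaving out the Kupffer value. Set against Kupffer-gated cells, the WT makeup was thus alike for Cd5l in B cells, T cells and neutrophils. It differed for Clec4f in B cells, and for Marco in the types named other than B cells. Summed over all WT cells, the Cxcl13 to Cd5l ratio was 14.7 per 100, below the B, T and neutrophil intervals. The likeness for Cd5l therefore depends on the reference taken. Against Vsig4 the WT ratio was 92.1 in Kupffer-gated cells and 88.0 in B cells (69.9 to 111). In sinusoidal endothelial cells it was 140 (112 to 176). KO stellate cells stood above the other KO background types, with 8.96 CPM and 10.2 Cxcl13 UMIs per 100 Cd5l UMIs (6.48 to 15.4). They held 25 UMIs in all, and 80.0% of these lay in 5 cells.

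With Cxcl13 counted at matched depth, the share of Kupffer-gated cells with a Cxcl13 UMI was also lower in KO. With each cell thinned to 1000 UMIs, 154 of 605 WT cells (25.5%, 22.0 to 29.1) and 38 of 461 KO cells (8.24%, 5.90 to 11.1) had a UMI, leaving out the shallower cells of the 613 and 467. Without thinning the shares were 47.3% and 19.1%, at median depths of 12082 and 14761 UMIs. The gate itself was set at full depth, so the choice of cells was not matched for depth. The cluster named Kupffer held 839 WT and 361 KO cells, and by cluster the thinned shares were 20.5% and 10.6%. In B cells, at median depths of 3414 and 4791, the unthinned shares were 11.7% and 1.26%, and the thinned shares 2.19% and 0.404%.

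Within the Kupffer gate, Cxcl13 was very unevenly spread over cells. No UMI was found in 323 of 613 WT cells (52.7%) and in 378 of 467 KO cells (80.9%). At the other end, 25 WT cells (4.08%) had 100 UMIs or more and held 49.7% of the gate's Cxcl13 UMIs, against 1 KO cell with 120. The richest WT cell had 528 UMIs. A threshold of 10 UMIs, set after the distribution was seen, marked 124 WT Kupffer-gated cells (20.2%, 17.1 to 23.6) and 21 KO ones (4.50%, 2.80 to 6.79). Near it, 22 WT and 14 KO cells had 5 to 9 UMIs, and 12 and 6 had 10 to 14. Over all kept cells 147 WT and 25 KO cells reached 10 UMIs. Of them, 3 WT cells and 1 KO cell lay outside both macrophage gates, a group that includes cells without a type. Before filtering, 169 WT and 32 KO barcodes reached 10 UMIs, and 21 and 7 of these were removed as doublets.

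Cells rich in Cxcl13 were thus fewer in KO and also carried less of it. Their summed level was 4681 CPM in WT and 1818 in KO, with medians of 48 and 17 UMIs per cell. They held 95.7% of the Cxcl13 UMIs of the gate in WT and 75.0% in KO. The remaining Kupffer-gated cells stood at 64.9 and 30.2 CPM, which is above the B cell level of each library. Both the number of rich cells and the level within them depend on the threshold, and their difference between genotypes has no replicate check.

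**Figure D2:**
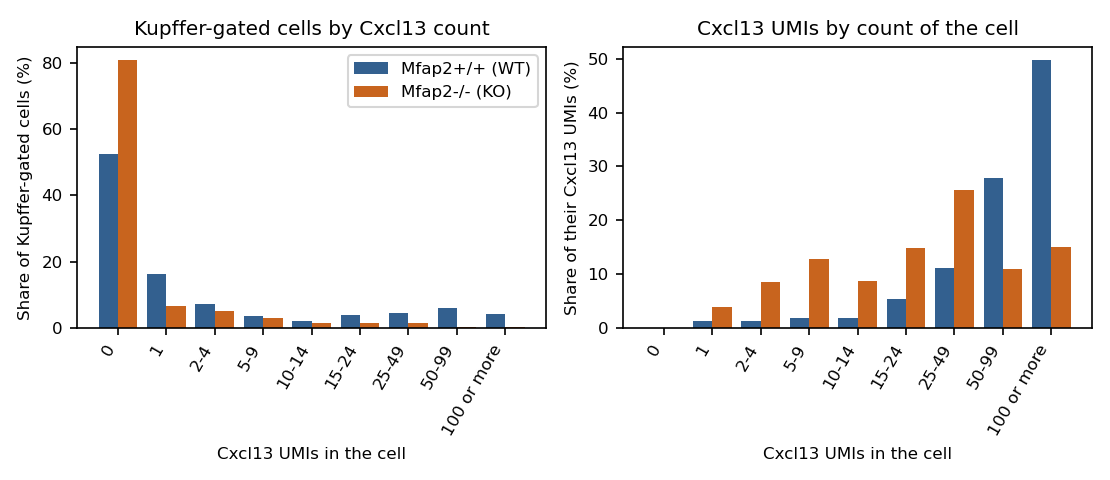
Kupffer-gated cells by the number of Cxcl13 UMIs they hold (bars, left, as % of 613 WT or 467 KO cells) and the % of the gate's Cxcl13 UMIs in each class of cells (right). Cells without a UMI make up 52.7% of WT and 80.9% of KO cells, and cells with 100 or more hold 49.7% of WT and 15% of KO UMIs.

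Genes of resident Kupffer cells were higher in the Cxcl13-rich cells of both libraries. Timd4, a receptor for dying cells that marks embryo-derived Kupffer cells, stood at 279 CPM in the WT rich cells and 58.6 in the other WT Kupffer-gated cells, a log2 difference of 2.25 (2.05 to 2.45). The KO values were 200 and 58.2 CPM (1.80, 1.38 to 2.16). Marco, a scavenger receptor for bacteria and particles, was higher in the rich cells by log2 2.39 in WT and 2.51 in KO. Cd163, the haemoglobin scavenger receptor, was higher by 2.18 and 2.43. Folr2, a folate receptor of resident macrophages, was higher by 0.79 and 1.49. Since the cells were picked for Cxcl13 within a gate that uses Timd4, Clec4f, Vsig4 and Cd5l, these values describe them and are no test.

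The scar-associated macrophage genes Gpnmb, Mmp12, Fabp5 and Trem2 were lower in the Cxcl13-rich cells. Gpnmb, a lysosomal glycoprotein of lipid-laden macrophages, stood at 66.8 CPM in the WT rich cells and 384 in the other WT cells (log2 -2.51), and at 66.7 and 668 CPM in KO (-3.26). Mmp12, the macrophage elastase, differed by log2 -3.04 and -3.53. Fabp5, a fatty acid carrier, differed by -1.34 and -2.30. Trem2, a lipid-sensing receptor, differed by -1.07 and -0.79, and Spp1, also scar-associated, by only -0.38 and -0.56. These are summed levels. The shares with a UMI for Fabp5 were 83.1% of rich and 83.0% of other cells in WT, and 81.0% and 76.7% in KO. For Mmp12 they were 27.4% and 37.8% in WT, and 28.6% and 29.1% in KO. For Gpnmb they were 45.2% and 57.1% in WT, and 57.1% and 65.5% in KO. Of the genes of recruited cells, the fractalkine receptor Cx3cr1 differed by -1.55 and -1.50, and the monocyte chemokine receptor Ccr2 by -0.94 in WT (-1.55 to -0.44) and -0.36 in KO (-1.75 to 0.48), where the interval includes 0. The general macrophage genes differed less, with log2 0.34 and 0.25 for Adgre1 and -0.13 and 0.37 for the complement gene C1qa. Ltbr, the lymphotoxin receptor, stood at 44.4 CPM in WT rich cells against 29.4 in the others (log2 0.60, 0.19 to 0.99), and in KO at 45.5 against 26.5 (0.86, -0.09 to 1.54), where the interval includes 0.

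**Figure D3:**
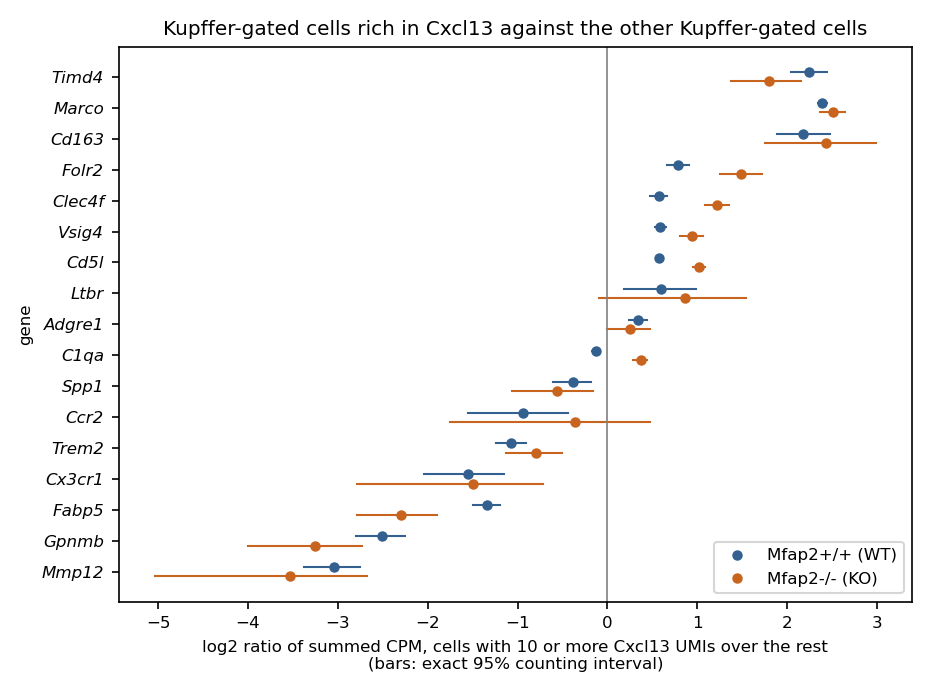
Log2 ratio of summed CPM between Kupffer-gated cells with 10 or more Cxcl13 UMIs and the other Kupffer-gated cells, for 17 genes, WT in blue (124 against 489 cells) and KO in orange (21 against 446); bars are exact 95% counting intervals. Timd4, Marco and Cd163 lie above 2 in WT, and Gpnmb and Mmp12 lie below -2 in both libraries.

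Cxcl13 was lower in the KO library at each number of Kupffer genes detected. Macrophages with all 4 Kupffer genes held 2500 CPM in WT (144 cells) and 310 in KO (95 cells). Those with 3 of 4 held 695 and 63.5 CPM, and those with 2 of 4 held 94.4 and 11.3. With 1 of 4 the levels were 66.1 and 3.44 CPM, and with 0 of 4 they were 51.4 and 3.72. The 0 of 4 levels came from 39 and 10 UMIs. Their intervals (36.5 to 70.2 and 1.78 to 6.83) overlap those of B cells, so they are not told apart from background. Kupffer-gated cells with a Timd4 UMI held 2053 and 269 CPM, against 735 and 63.9 in those without. With a Marco UMI the levels were 1504 and 211, and without it 546 and 71.4. The fold between libraries lay between 7.12 and 18.7 in these groups of cells, with the highest in those with 1 of 4, which are near background. With a Clec4f UMI, Kupffer-gated cells held 1198 and 116 CPM. The exception was the few without one, 28 in WT and 12 in KO, which held 111 and 58.4 CPM (log2 -0.80, -2.25 to 0.22), an interval that includes 0.

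Other genes of the Kupffer gate also differed, which bears on how alike the gated cells of the libraries are. Marco was at 2455 CPM in WT and 350 in KO (log2 -2.81). Cd163 was at 51.8 and 20.1 CPM (-1.36), Cd5l at 5422 and 3044 (-0.83), Timd4 at 111 and 64.9 (-0.77) and Vsig4 at 1256 and 900 (-0.48). Clec4f, a Kupffer lectin, was slightly higher in KO, at 678 and 761 CPM (0.17). The 6 scar-associated genes Trem2, Gpnmb, Spp1, Fabp5, Atp6v0d2 and Mmp12 summed to 1642 CPM in WT and 2243 in KO (0.45, 0.42 to 0.48), with none at 0. The 6 did not all go the same way. In Kupffer-gated cells not rich in Cxcl13, Mmp12 was lower in KO, at 416 CPM in WT and 280 in KO. Gpnmb was higher there, at 384 and 668 CPM, and Trem2, Spp1, Fabp5 and Atp6v0d2 were higher by a smaller fold. The part of these genes in the Cxcl13 difference was not tested.

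The genes whose levels ran most like Cxcl13 were Kupffer genes. Over 30 points, the 15 types with at least 50 cells in both libraries taken once per library, Pearson's r of log2(CPM + 1) was 0.902 for Marco. It was 0.756 for Vsig4, 0.753 for Cd163, 0.748 for Cd5l and 0.729 for Pf4, the platelet factor 4 chemokine, among 10919 genes. Types of the same library share free RNA and depth, and Vsig4 and Cd5l were used in the gate, so these r values are a description.

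Cxcr5 (ENSMUSG00000047880, chr9:44511787-44561877, reverse strand, overlapping Bcl9l on the other strand), the receptor for Cxcl13, was a B cell gene and differed little between the libraries there. B cells held 472 CPM in WT and 532 in KO, a log2 ratio of 0.17 (0.10 to 0.25). A Cxcr5 UMI was found in 71.6% of WT and 79.4% of KO B cells, or 35.9% and 38.4% after thinning. The median log2 ratio of all genes in B cells was 0.07, while 3.95% of 12163 genes were 2-fold or more higher in KO and 1.35% lower. B cells themselves made up 10.8% of WT and 15.3% of KO cells, and they held 75.8% and 78.9% of all Cxcr5 UMIs. The level was higher in KO in 17 of the 19 types, and lower in plasmacytoid dendritic cells and hepatocytes. The interval left out 0 in 9 of those 17, and it included 0 in hepatocytes, with 4 and 5 UMIs. Over the 18 types other than B cells the median level was low, at 5.62 CPM in WT and 10.8 in KO. The 8 B cell markers differed in the same direction, by 0.64 in Kupffer-gated cells and 0.55 in other macrophages. They differed by 0.87 in NK or ILC1 cells, 0.28 in sinusoidal endothelial cells and -1.58 in plasmacytoid dendritic cells. How many of all genes were higher in as many types was not counted.

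T cells held far less Cxcr5 than B cells, and more in KO. Their level was 17.9 CPM in WT and 38.3 in KO (log2 1.09, 0.73 to 1.49), and in CD8 T cells it was 17.6 and 46.4 (1.37, 0.86 to 1.98). The T cell ratio was just short of 2-fold with the automatic doublet threshold (0.97), as a mean over cells (0.93) and with median-of-ratios scaling (0.98). For scale, 4.48% of 12103 genes in T cells were 2-fold or more higher in KO and 1.20% lower. In neutrophils, which are not known for using this receptor, it was 16.1 and 32.3 (0.99, 0.51 to 1.52), where 6.15% of 9865 genes were 2-fold or more higher and 1.84% lower. The 8 B cell markers, read in the same cells, had a similar ratio. Their sum in T cells was 79.7 CPM in WT and 162 in KO (1.02, 0.84 to 1.2), and in neutrophils 99.3 and 202 (1.02, 0.83 to 1.23), with none of the 8 at 0. Per 100 of those UMIs, T cells had 22.4 Cxcr5 UMIs in WT and 23.7 in KO, and B cells had 4.79 and 5.02. Neutrophils had 16.2 (11.8 to 21.8) and 16.0 (12.9 to 19.7), also above the B cell values. Whether B cell RNA sets the Cxcr5 difference in T cells or neutrophils was not tested.

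Ccl19 (ENSMUSG00000071005, chr4:42754525-42756577, reverse strand, overlapping 4930578G10Rik on the other strand) was a stellate cell gene. Stellate cells, 203 in WT and 196 in KO, held 94.0 and 64.1 CPM from 253 and 179 UMIs. The log2 ratio was -0.55 (-0.84 to -0.27), while 2.23% of 11957 genes there were 2-fold or more lower in KO and the median over all of them was 0.14. A Ccl19 UMI was found in 56.7% of WT and 46.9% of KO stellate cells (8.29% and 6.95% after thinning, with intervals of 4.81 to 13.1 and 3.75 to 11.6). In each of the other 18 types Ccl19 was at or below 3.65 CPM. The 10 stellate markers were lower in these KO cells too, at 17531 and 12828 CPM in sum (-0.45), and the 7 hepatocyte markers were higher, at 113 and 250 CPM (1.14). Per 100 stellate marker UMIs there were 0.536 Ccl19 UMIs in WT (0.472 to 0.607) and 0.50 in KO (0.429 to 0.579), and these intervals overlap. A second copy of Ccl19, on an unplaced scaffold, had 0 UMIs.

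**Figure D4:**
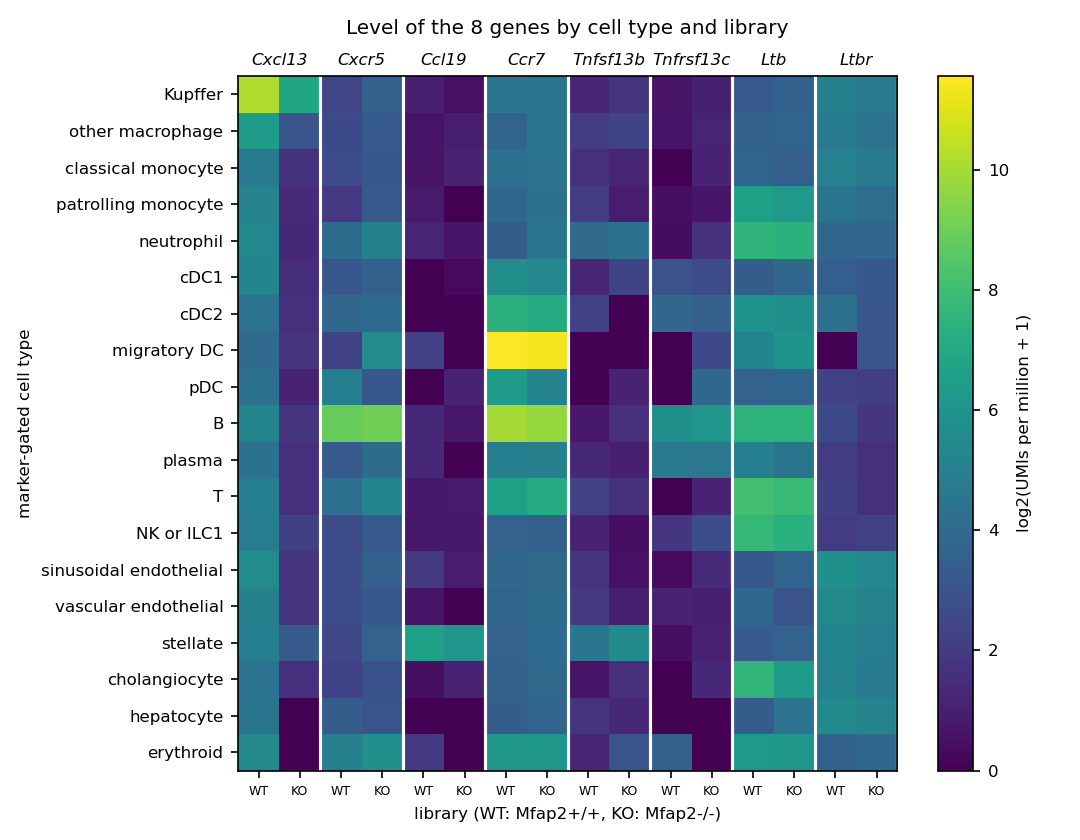
Level of each of the 8 genes, as log2(CPM + 1), in 19 marker-gated cell types (rows), with the WT and KO libraries side by side in each gene's pair of columns. Cxcl13 is brightest in Kupffer cells, Cxcr5 in B cells, Ccr7 in migratory dendritic cells and B cells, and Ccl19 in stellate cells.

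Ccr7 (ENSMUSG00000037944, chr11:99144196-99155077, reverse strand), the receptor for Ccl19, was highest in migratory dendritic cells (DC) and B cells. The 24 WT and 36 KO migratory DC held 3015 and 2657 CPM (log2 -0.18, -0.31 to -0.05), and thinning each cell before summing turned the sign, to 0.34. These cells formed no cluster of their own. The 7 migratory DC markers were lower in KO by more, at 3534 and 2662 CPM in sum (-0.41, -0.53 to -0.28), so that Ccr7 per 100 of their UMIs was 85.3 in WT (77.7 to 93.7) and 99.8 in KO (91.7 to 109). B cells held 1013 and 861 CPM (-0.24, -0.29 to -0.18). T cells went the other way, at 97.3 and 136 CPM (0.48, 0.31 to 0.65), and CD8 T cells stood at 145 and 210 (0.53, 0.33 to 0.74). After thinning, a Ccr7 UMI was found in 6.61% of WT T cells (4.84 to 8.77) and 9.33% of KO T cells (7.44 to 11.5), which overlap. None of these differences reached 2-fold.

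Tnfsf13b (ENSMUSG00000031497, chr8:10006467-10039072, forward strand), which encodes the B cell survival factor BAFF, was low everywhere and highest in stellate cells and neutrophils. In stellate cells it was 21.6 CPM in WT and 45.1 in KO, from 58 and 126 UMIs (log2 1.05, 0.61 to 1.54), in a type where 5.71% of genes were 2-fold or more higher in KO. In KO, 5 cells held 60.3% of those UMIs, against 17.2% in WT. With those 5 KO cells and the 5 richest WT cells left out, the log2 ratio was -0.04, and thinning before summing gave 1.95. The share of stellate cells with a UMI was 24.1% and 25%. Neutrophils held 14.8 and 19.6 CPM (0.39, -0.17 to 0.98), an interval that includes 0. Kupffer-gated cells were at 1.33 and 2.44 CPM.

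Tnfrsf13c (ENSMUSG00000068105, chr15:82221743-82224369, reverse strand), the BAFF receptor, was found in B cells and, below them, plasma cells. B cells held 52.4 CPM in WT and 63.9 in KO (log2 0.28, 0.06 to 0.52), and 16.5% and 24.7% of them had a UMI. Thinned shares were 4.01% (2.93 to 5.35) and 6.35% (5.25 to 7.60). Plasma cells, with 17 and 23 UMIs, stood at 25.3 and 22.8 CPM (-0.17, -1.12 to 0.85). T cells had 0 UMIs in WT, which allows up to 0.705 CPM, and 8 in KO (1.23 CPM).

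Ltb (ENSMUSG00000024399, chr17:35194439-35196320, forward strand), the membrane-anchoring part of lymphotoxin, was spread over lymphocytes, neutrophils and cholangiocytes. T cells held 268 CPM in WT and 217 in KO (log2 -0.31, -0.42 to -0.20). NK or ILC1 cells, the innate cytotoxic lymphocytes, held 213 and 160 (-0.41, -0.58 to -0.25). B cells stood at 177 and 175 CPM (-0.02, -0.15 to 0.11), an interval that spans 0, and neutrophils stood at 185 and 168 (-0.14, -0.31 to 0.03). In T cells the 8 T cell markers were lower in KO as well (-0.21), with 8.29 Ltb UMIs per 100 marker UMIs in WT (7.80 to 8.81) and 7.72 in KO (7.30 to 8.15).

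Cholangiocytes, the bile duct cells, showed the widest Ltb difference of the 19 types. They held 187 CPM in WT, from 946 UMIs, and 82.5 in KO, from 487 (log2 -1.18, -1.34 to -1.02), in a type where 1.39% of 13465 genes were 2-fold or more lower in KO and 6.39% higher. The ratio no longer reached 2-fold with no doublets removed (-0.91) or with the automatic doublet threshold (-0.90). An Ltb UMI was seen in 56.9% of 174 WT and 47.9% of 167 KO cells. After thinning the shares were 14.5% (9.19 to 21.3) and 7.89% (4.15 to 13.4), which overlap. T cell markers in these cells were at 30.4 and 32.5 CPM, B cell markers at 79.0 and 137 and NK or ILC1 markers at 37.5 and 25.1. The 7 cholangiocyte markers summed to 6826 and 5173 CPM (-0.40). Their part in the Ltb difference was not tested.

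Ltbr (ENSMUSG00000030339, chr6:125306571-125313885, reverse strand), the lymphotoxin receptor, was low in lymphocytes and present in endothelial, stromal, bile duct and many myeloid cells. Hepatocytes, with 19 and 25 UMIs, stood at 45.7 CPM in WT and 35.5 in KO. Cholangiocytes and patrolling monocytes held both Ltbr and Ltb. Sinusoidal endothelial cells, which line the liver's capillaries, held 54.3 CPM in WT and 39.3 in KO (log2 -0.47, -0.72 to -0.22), where 2.89% of 12816 genes were 2-fold or more lower and 3.13% higher. Kupffer-gated cells held 32.9 and 27.4 (-0.26, -0.54 to 0.01). Stellate cells stood at 35.7 and 28.7 (-0.31, -0.76 to 0.13) and cholangiocytes at 35.4 and 25.1 (-0.50, -0.82 to -0.17). B cells had 4.87 and 2.59 CPM and T cells 3.53 and 2.0. Of the 18 types with an Ltbr UMI in both libraries, 16 had a lower level in KO, most of them within counting error. The Kupffer-gated cells, the main holders of Cxcl13, differed in Cxcl13 by log2 -3.33 and in Ltbr by -0.26. Whether the 2 are linked was not tested, and signalling through Ltbr was not measured.

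**Figure D5:**
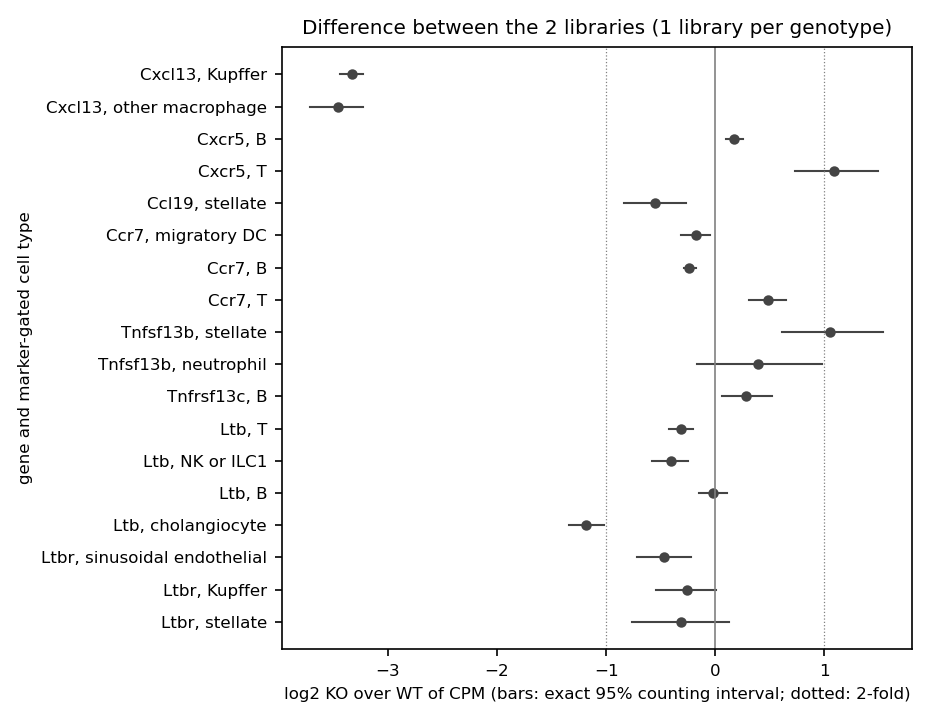
Log2 ratio of KO over WT level for 18 pairs of gene and cell type, with exact 95% counting intervals as bars and dotted lines at 2-fold. Cxcl13 in Kupffer-gated cells (-3.33) and other macrophages (-3.46) lies farthest from 0 among those plotted; Ltb in cholangiocytes (-1.18), Cxcr5 in T cells (1.09) and Tnfsf13b in stellate cells (1.05) are the others plotted past 2-fold.

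A wider list of 37 genes of the same pathways was read in the same cells. It held other ligands such as Ccl21a, Lta and Tnfsf14, receptors, the non-canonical NF-kappa-B genes such as Nfkb2, Relb and Map3k14, and adhesion genes. In Kupffer-gated cells 27 of them had at least 20 UMIs. Of these 27, 0 were 2-fold or more lower in KO and 1 was higher, with a median log2 ratio of 0.04 against 0.11 for all genes, of which 1.35% were that much lower and 6.16% higher. That 1 was Ccr6, a chemokine receptor, with 5 UMIs in WT and 25 in KO. All 8 non-canonical NF-kappa-B genes were among the 27, with a median of 0.08. In B cells 0 of 27 passed 2-fold in either direction (all genes: 3.95% higher), and in stellate cells 0 of 25 (5.71% higher). T cells had 1 of 29 higher (4.48%), again Ccr6, at 4.23 and 9.39 CPM. Cholangiocytes had 2 of 27 higher and 1 lower (6.39% and 1.39%), other macrophages 1 of 31 higher (6.25%) and sinusoidal endothelial cells 1 of 28 higher (3.13%). In neutrophils 0 of 26 passed 2-fold. Nothing particular to the list is read from these small counts.

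Migratory DC held the 2 list genes that were both past 2-fold and above 20 CPM in each library. The inflammatory cytokine Tnf stood at 143 CPM in WT and 453 in KO (log2 1.64), and Tnfrsf11a, the receptor RANK, at 146 and 356 (1.26). They were 2 of the 18 list genes with at least 20 UMIs there. The background in this small type was wide, with 10.2% of 4141 genes 2-fold or more higher in KO and 5.80% lower.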

How the data were processed

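Droplet single-cell RNA was counted in 1 WT and 1 KO library. Per the file headers, Cell Ranger 7.0.1 made the deposited matrices, which hold raw UMI counts. The submitters' processing notes name Cell Ranger 3.1.0, Seurat and mm10. The annotation release and the handling of intronic reads are not given in the sources used here. Every deposited barcode had at least 500 UMIs. Of 32285 gene identifiers, 32158 (99.6%) occur in GENCODE M21 (GRCm38), which gave positions.

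Barcodes with under 200 genes or over 20% mitochondrial UMIs were dropped, 413 from WT and 149 from KO. Scrublet (scanpy 1.11.5) ranked doublets, and the top-ranked 0.8% per 1000 cells were dropped, 1034 and 1295 cells. Its automatic threshold marked 1 WT and 727 KO cells, so it did not work in WT. A cell took its best-scoring type when at least 3 of that type's markers had a UMI and the score was at least 0.25. In addition, no type of another family could score over 0.75 of the best. Types of the same family were parted by the highest score alone. Such families were T with NK or ILC cells, stellate with fibroblast and smooth muscle cells, the endothelial types, the conventional and migratory dendritic cells, and the monocytes. Of the Kupffer-gated cells, 68.7% lay in the cluster of that name (leidenalg 0.10.2, resolution 1). Left out were 5 types with fewer than 20 cells in a library.

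Log2 ratios have 1 count added to each sum. Intervals are exact Poisson (levels), Clopper-Pearson (shares) and exact conditional (ratios), and cover counting error only. For shares, cells were thinned to 1000 UMIs. A count of 0 has an upper limit of 3 counts. The ratio step was tested on simulated counts: 95.9% of 12465 Kupffer intervals held the true ratio, and 100% of 200 genes changed 2-fold had the right sign. Those counts were drawn from the Poisson model that the intervals assume, with no spread between cells. They check the computation only, and not the width of the intervals for unevenly spread genes such as Cxcl13.

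The members, lists and tests were chosen with earlier results of these data known. Genes named were the 8 members, list genes past 2-fold with a mean level of at least 20 CPM, and the 5 genes most like Cxcl13. Ccr6, the genes compared in Cxcl13-rich cells and the marker lists read beside a result were added after values were seen. Alternatives covered clusters, stricter gates, doublets, filters, thinning, per-cell means, the 5 richest cells and median-of-ratios scaling.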

Additional observations from a re-analysis of the deposited data

Results flagged for a closer look

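Ccr7 and Ltb differed between the libraries in opposite directions in different cell types, with intervals that leave out 0 on both sides. Ccr7 was lower in KO plasmacytoid dendritic cells (log2 -1.24, from 21 and 31 UMIs) and higher in KO neutrophils (1.15, from 31 and 71 UMIs). The 8 B cell markers in the same cells differed by -1.58 and 1.02. Ltb was lower in KO cholangiocytes (-1.18) and higher in KO sinusoidal endothelial cells (0.58, from 33 and 102 UMIs). In sinusoidal endothelial cells Ltb was low, at 8.03 CPM in WT, the lowest WT level of the types compared, and 12.3 in KO. The 8 B cell markers differed there by 0.28 (0.13 to 0.44), and in cholangiocytes by 0.80. Whether free RNA sets the Ltb difference in sinusoidal endothelial cells was not tested. With 1 library per genotype, the difference between cell types was not tested.

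Ccl19 was also found in a type too small for the comparisons. Smooth muscle-gated cells, 11 in WT and 10 in KO, held 254 CPM (173 to 360) and 150 CPM (85.8 to 244), above the stellate level in each library. A single WT cell held 26 of the 31 UMIs, and a single KO cell held 10 of the 16.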

How the results depend on the processing

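Of 192 values recomputed under alternatives, 149 were counted as the same, 41 as moved and 2 as reversed. The same meant within the counting interval of the main value. For the shares of genes past 2-fold and the genes most like Cxcl13 a fold limit was used instead. Reversed meant a change of sign where the main interval left out 0. Ltb in B cells (-0.02, and 0.12 after thinning) was therefore counted as moved. Cxcl13 in Kupffer-gated cells was lower in KO under all 12 alternatives tried. Its log2 ratio was -2.55 with clusters in place of gates, -2.80 after thinning, -2.75 as a mean over cells, -3.79 without the 5 richest cells and -3.44 with median-of-ratios scaling. With gates added after the data were seen it was -3.64 (a Clec4f UMI) and -3.01 (all 4 Kupffer genes). The WT level was 889 CPM by cluster, 1047 with no doublets removed and 1047 with the automatic threshold, 1132 thinned, 1232 as a mean over cells and 955 without the 5 richest cells. The KO level was 151 by cluster, 161 thinned, 183 as a mean over cells and 68.9 without the 5 richest. The share of Kupffer cells with a UMI was 47.3% in WT and 19.1% in KO without thinning, and in WT 29.5% at 2000 UMIs and 20.5% by cluster. Counting genes with any UMI, 3.79% of Kupffer genes were 2-fold lower and 17.5% higher, against 1.35% and 6.16%.

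Thinning gave 0.34 for Ccr7 in migratory dendritic cells, a change of sign, -0.12 for Ccl19 and 1.95 for Tnfsf13b in stellate cells, 0.64 for Tnfrsf13c in B cells, -0.48 for Ltb in T cells and -2.30 for Cxcl13 in B cells. Ltb in cholangiocytes was short of 2-fold with no doublets removed (-0.91) and with the automatic threshold (-0.90). So was Cxcr5 in T cells with that threshold (0.97), as a mean over cells (0.93) and with median-of-ratios scaling (0.98). Cxcl13 in other macrophages was -2.72 by cluster and -4.31 as a mean over cells. Tnfsf13b in stellate cells changed sign without the 5 richest cells (-0.04). Median-of-ratios scaling, which shifts all log2 ratios by the median gene (from -0.04 in sinusoidal endothelial cells to 0.15 in other macrophages), gave 0.08 for Cxcr5 in B cells. Ltbr in sinusoidal endothelial cells lay between -0.59 and -0.40 throughout. Apart from the Tnfsf13b value without its richest cells, the causes were not tested. Migratory dendritic cells gave no value by cluster, since no cluster took that name. No paired analysis was possible because the labels give no replicate numbers and there is 1 library per genotype. No replicate could be left out. Thinning to 1000 UMIs leaves few UMIs of genes at low levels.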
